A study of Homo sapiens with 9 samples.

Results

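The genes described here make, cut or bind hyaluronan, a long sugar polymer of the extracellular matrix, in hTERT-MSC, a human adipose mesenchymal stem cell line immortalised with telomerase. They are the synthases HAS1, HAS2 and HAS3, the depolymerising genes CEMIP, HYAL1, HYAL2 and HYAL3, and the binding proteins TNFAIP6 and HAPLN1. All 9 were matched by symbol in the deposited tables, out of 62709 genes with counts, and all 9 passed the filter on low counts that left 19426 genes. HAS2 and TNFAIP6 were chosen by their measured shift between fractions in earlier results of these data, while the other 7 are named as genes of the same pathway. The levels of HAS2 and TNFAIP6 are therefore given as a description, with no test, and tests are given for the other 7.

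Hyaluronan is made at the plasma membrane by the synthases, which join UDP-glucuronic acid and UDP-N-acetylglucosamine and push the growing chain out of the cell. It is cut with the help of CEMIP and, at the surface and in lysosomes, by hyaluronidases. It is held in pericellular coats by link proteins, hyalectan proteoglycans and receptors such as CD44. Mesenchymal cells are known for such coats, and hyaluronan is known to take part in cell spreading and migration.

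Each of the 3 groups held 3 libraries, and every group carried the same agent, PDGF-BB at 50 ng/mL for 1 h, so no untreated group was compared. Serum-starved cells had settled for 2 h on membranes with 3 µm pores before PDGF-BB was placed below. Pseudopodia were the protrusions scraped from the lower side of the membrane, and cell body was what remained on the upper side, collected next. Libraries of whole cells have the same treatment label, but their collection is not described apart from the fractions, so the effect of fractionation and any difference in handling cannot be told apart. The labels name a single cell line and tie no replicate to a culture of its own. The tests therefore read library-to-library spread, which may be technical.

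Totals were 55469030 to 83894938 counts per library, and each group was spread differently, with a biological coefficient of variation of 32.0% in pseudopodia, 17.6% in the cell body and 5.08% in whole cell. The mesenchymal markers NT5E, THY1, ENG, PDGFRB, CD44 and VIM were all present in every group, with a summed TPM (the deposited level per transcript length) of 1950 to 3000 in pseudopodia, 5250 to 5530 in the cell body and 4630 to 4860 in whole cell. Of 6 haematopoietic markers, 2 in pseudopodia, 3 in the cell body and 2 in whole cell reached a mean of 1 TPM, and the sum was 30.1 to 36.9, 56.1 to 61.6 and 40.1 to 41.6 TPM. This sum was nearly all CD34 (25.6, 29.7 and 33.0 TPM) and CD14 (7.23, 28.8 and 6.73 TPM), while the leukocyte gene PTPRC stayed at 0.0942 TPM or less. The epithelial sum was 213 to 282, 252 to 298 and 151 to 160 TPM, made mostly of the keratins KRT8 and KRT18. In each group 3 of the 6 epithelial markers reached a mean of 1 TPM. The third was CLDN4 (2.6, 3.8 and 3.6 TPM), while EPCAM stayed at 0.0409 TPM or less. The endothelial sum was 38.8 to 50.1, 59.5 to 84.9 and 66.5 to 71.7 TPM, mostly TEK. A mean of 1 TPM was reached by 4, 4 and 3 of the 6 endothelial markers. CDH5 had means of 1.57, 8.33 and 11.3 TPM, PECAM1 4.39, 4.42 and 2.09, and VWF 4.75, 2.20 and 0.59. KDR and CLDN5 were at or near 0. The adipocyte sum was 0.795 to 1.31, 0.888 to 1.07 and 1.68 to 1.88 TPM, with ADIPOQ at or near 0. PLIN1 (0.49, 0.47 and 1.27 TPM) was the 1 adipocyte marker of 6 to reach a mean of 1 TPM, in whole cell only. The part of these markers in the results was not tested. Nuclear-retained lncRNAs took 0.0182% to 0.0201% of counts in pseudopodia libraries, 0.0355% to 0.0429% in cell body and 0.0927% to 0.0957% in whole cell. In bulk libraries, fewer cells that carry an mRNA and less of it per cell cannot be told apart.

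The 250 bases before the start site are shown for HAS1 and TNFAIP6, since the mRNA of HAS1 was near silent in whole cell and similar in both fractions, while that of TNFAIP6 was highest in cell body. They come from RefSeq on GRCh38.p14, each read 5′ to 3′ on its gene's strand, at chr19:51723992-51724241 on the minus strand for HAS1 and chr2:151357342-151357591 on the plus strand for TNFAIP6. Capitals mark the motif matches.
HAS1: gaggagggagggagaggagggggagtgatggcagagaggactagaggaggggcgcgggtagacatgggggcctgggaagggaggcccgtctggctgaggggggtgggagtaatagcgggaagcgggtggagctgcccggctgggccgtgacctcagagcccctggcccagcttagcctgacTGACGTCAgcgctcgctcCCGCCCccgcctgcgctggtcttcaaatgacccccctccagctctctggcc
TNFAIP6: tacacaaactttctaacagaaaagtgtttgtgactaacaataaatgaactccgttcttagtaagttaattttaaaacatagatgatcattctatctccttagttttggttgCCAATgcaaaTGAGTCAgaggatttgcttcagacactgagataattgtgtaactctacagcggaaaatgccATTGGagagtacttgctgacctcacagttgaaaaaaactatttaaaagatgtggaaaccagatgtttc
Both strands were searched for AP-1, spelled TGANTCA, and for the cyclic AMP response element CRE, spelled TGACGTCA. The search also covered the TATA box as TATAAA, the CCAAT box, the GC box as GGGCGG, and the NF-kB and CArG motifs. No matches overlapped in these 2 sequences. The CRE was added to the search after the HAS1 sequence had been read. HAS1 held 1 CRE, 69 to 62 bases before the start, and 1 GC box. TNFAIP6 held 1 AP-1 match, 129 to 123 bases before the start, and 2 CCAAT matches. Of 34786 distinct windows of this length, 1.64% held a CRE, 6.59% an AP-1 match, 32.0% a CCAAT match and 42.6% a GC box. These letters are a description of the windows. HAS1 was GC-rich here, with 69.2% G or C, and TNFAIP6 was AT-rich, with 34.4%. Promoter sequences matched 8 of the 9 genes, HAS2 being without an entry.

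In GENCODE release 29 on GRCh38, HAS1 (ENSG00000105509) lies on chromosome 19 at 51713112 to 51723994, HAS3 (ENSG00000103044) on chromosome 16 at 69105564 to 69118719, and HAS2 (ENSG00000170961) on chromosome 8. CEMIP (ENSG00000103888) lies on chromosome 15 at 80779343 to 80951776, TNFAIP6 (ENSG00000123610) on chromosome 2 at 151357592 to 151380048, and HAPLN1 (ENSG00000145681) on chromosome 5 at 83637805 to 83721613. HYAL3 (ENSG00000186792), HYAL1 (ENSG00000114378) and HYAL2 (ENSG00000068001) follow each other on chromosome 3, at 50292831 to 50299468, 50299889 to 50312381 and 50317790 to 50322906. Exons of HYAL2 share 509 bases with TUSC2, and those of HYAL3 share 248 with NAA80 and 43 with IFRD2, on the same strand. HAS3 shares 365 exon bases with CHTF8, CEMIP shares 224 with MESD and 71 with AC027808.1, and HAS2 shares 201 with HAS2-AS1, all on the opposite strand. Whether reads were counted by strand is not given in the sources used here, so these genes may have gained or lost reads to their neighbours.

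HAS1 and HAS2 mRNA was far higher in both fractions than in whole cell, where HAS1 was close to missing. Values are CPM, read counts normalised to each library's total with TMM factors, listed in replicate order. HAS1, a synthase of low basal expression in most cells, had 7.91, 8.02 and 11.5 CPM in pseudopodia, 11.5, 10.8 and 11.8 in the cell body and 0.294, 0.321 and 0.597 in whole cell. The whole cell values rest on 27, 22 and 37 reads. Pseudopodia and cell body overlapped at their edge, and both stood far above whole cell. HAS1 rose against whole cell by a log2 fold change of 4.52 ± 0.283 (SE) in pseudopodia (22.9-fold, adjusted p = 4.22e-07) and of 4.83 ± 0.286 in cell body (28.5-fold, adjusted p = 9.73e-07), in edgeR's quasi-likelihood test with Benjamini-Hochberg adjustment over all genes tested. These were the 57th and 34th highest of 19426 log2 fold changes. On log2(TPM + 1), which understates folds of low genes, the values were 3.01 and 3.60. Between pseudopodia and cell body the log2 fold change was -0.32 ± 0.232 (adjusted p = 0.311). It passed with limma-voom (-0.51, adjusted p = 0.00437), on log2(TPM + 1) (-0.59, adjusted p = 0.0194) and after the correction for GC content (-0.59, adjusted p = 0.0266).

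HAS2, the main hyaluronan synthase of mesenchymal cells, had 39.6, 53.5 and 20.1 CPM in pseudopodia, 79.2, 72.6 and 85.1 in the cell body and 3.03, 2.77 and 3.18 in whole cell. The 3 groups did not overlap, and cell body was highest. The log2 fold changes were 3.66 ± 0.317 for pseudopodia and 4.72 ± 0.332 for cell body against whole cell, and -1.07 ± 0.284 for pseudopodia against cell body. After the correction for GC content they were 5.11, 5.65 and -0.54. On log2(TPM + 1) the 2 values against whole cell were 2.76 and 4.18.

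HAS3, the third synthase, was scarce everywhere. It had 2.69, 1.58 and 2.80 CPM in pseudopodia, 1.63, 2.12 and 1.70 in the cell body and 1.10, 1.06 and 1.34 in whole cell. The fractions overlapped each other, and whole cell lay below every library of both in CPM. In TPM, pseudopodia replicate 2 (1.07) lay below whole cell replicate 3 (1.19). Against whole cell HAS3 rose in pseudopodia (log2 fold change 1.01 ± 0.247, adjusted p = 0.00444), a call that was lost on log2(TPM + 1) (0.29, adjusted p = 0.0889) and on log2(TPM + 0.1) (0.48, adjusted p = 0.105). For cell body the value was 0.64 ± 0.248 (adjusted p = 0.063). This passed without pseudopodia replicate 2 (adjusted p = 0.0182) or pseudopodia replicate 3 (adjusted p = 0.0341), with no low-count filter (adjusted p = 0.0343), with DESeq2 (adjusted p = 0.0498), with limma-voom (adjusted p = 0.00897) and in the fit of 6 libraries (adjusted p = 0.0118). Pseudopodia and cell body differed by 0.37 ± 0.243 (adjusted p = 0.256), which passed without pseudopodia replicate 2 (0.59, adjusted p = 0.037) and with limma-voom (0.48, adjusted p = 0.0396).

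**Figure D1:**
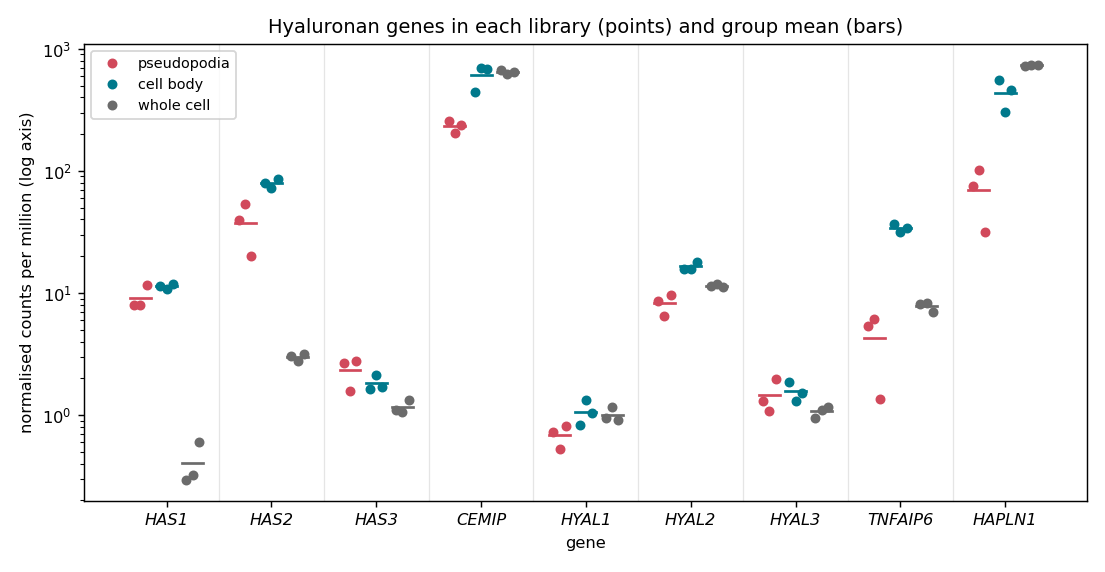
CPM of the 9 genes on a log axis, with each library as a point and the group mean as a bar. HAS1 and HAS2 are low in whole cell (means of 0.404 and 2.99 CPM) and high in both fractions, while TNFAIP6 is highest in cell body (mean of 34.3 CPM).

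In CPM, HAS1 and HAS3 had every whole cell library below all 6 libraries of the fractions, which held for 19.3% of the genes tested. HAS1 was also among the 95 genes (0.489%) whose mean was at least 8-fold above whole cell in both fractions. HAS2 met both criteria too, but it was chosen by its shift between fractions, so nothing is read from its place among all genes. A whole cell level below both fractions is outside the range that those fractions span. Per length, HAS2 was the most abundant synthase in every library but pseudopodia replicate 3. HAS2 had 31.8, 44.5 and 15.4 TPM in pseudopodia, where HAS1 had 12.1, 12.6 and 16.7 TPM. In cell body HAS2 had 77.2, 69.8 and 84.5 TPM and HAS1 21.2, 19.7 and 22.2 TPM. HAS2 made up 76.5% to 78.2% of the summed synthase TPM in the cell body libraries, and 69.7%, 76.4% and 45.4% in pseudopodia replicates 1, 2 and 3. HAS3 made up 1.27% to 5.16% in the fractions and 20.0% to 20.4% in whole cell, where the sum was 4.61 to 5.89 TPM against 91.1 to 108.1 TPM in cell body. These sums and shares depend on HAS2 and its choice, so they are given as a description.

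**Figure D2:**
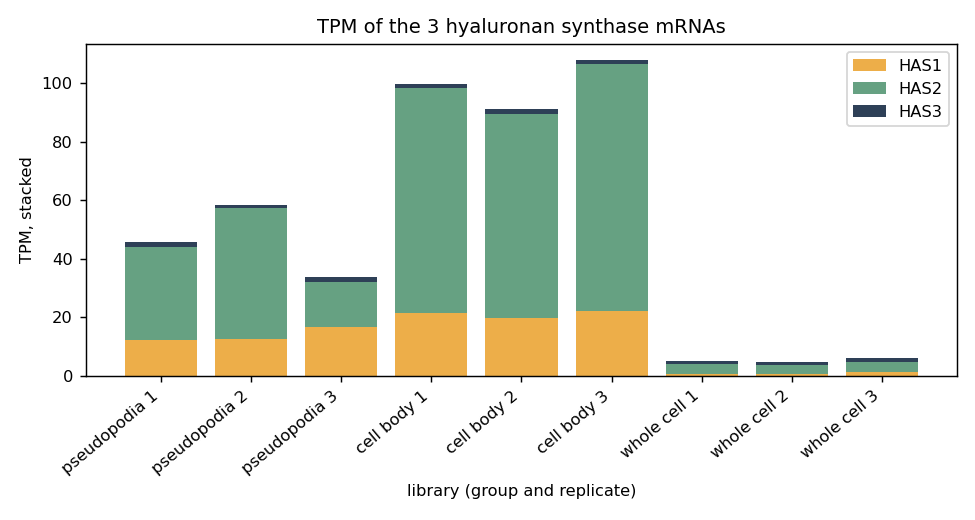
Stacked TPM of the 3 synthase mRNAs in each library. The sum is 33.9 to 58.2 TPM in pseudopodia, 91.1 to 108.1 TPM in cell body and 4.61 to 5.89 TPM in whole cell, and HAS2 is the largest share in all libraries but pseudopodia replicate 3.

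Among the depolymerising genes, CEMIP and HYAL2 were lower in pseudopodia than in cell body. CEMIP, which binds hyaluronan and drives its cleavage, had 253.9, 203.6 and 239.5 CPM in pseudopodia, 445.0, 693.3 and 685.0 in the cell body and 669.5, 626.1 and 650.0 in whole cell. Every pseudopodia library lay below all the others, and cell body overlapped whole cell. CEMIP fell in pseudopodia both against cell body (log2 fold change -1.39 ± 0.173, 2.62-fold, adjusted p = 8.49e-05) and against whole cell (-1.48 ± 0.173, 2.79-fold, adjusted p = 2.93e-05). Cell body and whole cell differed by -0.09 ± 0.169 (adjusted p = 0.69). CEMIP made up 90.1% to 96.3% of the summed TPM of the 4 depolymerising genes in all 9 libraries. The summed synthase TPM was 0.299 to 0.571 of that sum in pseudopodia, 0.234 to 0.382 in the cell body and 0.0116 to 0.0144 in whole cell. This ratio is a description, since HAS2, chosen by its shift between fractions, is a large share of the synthase sum.

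HYAL2, a hyaluronidase anchored at the cell surface that cuts long chains, had 8.64, 6.44 and 9.59 CPM in pseudopodia, 15.8, 15.8 and 18.0 in the cell body and 11.3, 11.9 and 11.2 in whole cell. None of the 3 groups overlapped. HYAL2 fell in pseudopodia against cell body (log2 fold change -1.01 ± 0.165, adjusted p = 0.000592). Against whole cell it fell in pseudopodia (-0.48 ± 0.164, adjusted p = 0.0241) and rose in cell body (0.53 ± 0.163, adjusted p = 0.0254). The first of these 2 calls was lost without the low-count filter (adjusted p = 0.0865), without pseudopodia replicate 2 (0.0639), cell body replicate 3 (0.0514) or whole cell replicates 1, 2 and 3 (0.0809, 0.104 and 0.0589). The other was lost without cell body replicate 3 (adjusted p = 0.0845) or whole cell replicates 1, 2 and 3 (0.0849, 0.0622 and 0.0873), and on log2(TPM + 1) (0.33, adjusted p = 0.0716).

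HYAL1, a lysosomal hyaluronidase, had 0.722, 0.53 and 0.81 CPM in pseudopodia, 0.822, 1.33 and 1.04 in the cell body and 0.947, 1.17 and 0.904 in whole cell. These values rest on 39 to 87 reads per library. The pseudopodia libraries lay just below the rest, and the log2 fold changes of -0.64 ± 0.263 against cell body (adjusted p = 0.078) and -0.56 ± 0.262 against whole cell (adjusted p = 0.0862) did not pass. Both passed with limma-voom (adjusted p = 0.0165 and 0.0277), on log2(TPM + 1) (0.0174 and 0.00532) and after the correction for GC content (0.0189 and 0.00825), and the first also without pseudopodia replicate 3 (0.0493). Cell body and whole cell overlapped, with 0.08 ± 0.255 (adjusted p = 0.824).

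HYAL3, a family member whose own hyaluronidase activity is weak, had 1.31, 1.09 and 1.99 CPM in pseudopodia, 1.85, 1.31 and 1.52 in the cell body and 0.947, 1.11 and 1.16 in whole cell. The fractions overlapped, and cell body lay above whole cell in CPM. In TPM, cell body replicate 2 (2.71) lay below whole cell replicate 3 (2.73). No comparison passed: -0.10 ± 0.253 between pseudopodia and cell body (adjusted p = 0.776), 0.44 ± 0.256 for pseudopodia against whole cell (adjusted p = 0.156) and 0.54 ± 0.255 for cell body against whole cell (adjusted p = 0.114). The last passed without pseudopodia replicate 3 (adjusted p = 0.0374), with limma-voom (adjusted p = 0.0338) and in the fit of 6 libraries (adjusted p = 0.0366).

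Both binding proteins were low in pseudopodia. By group means TNFAIP6 was highest in cell body and HAPLN1 in whole cell, but these genes were not tested against each other. TNFAIP6, also called TSG-6, moves the heavy chains of inter-alpha-inhibitor onto hyaluronan and is induced by inflammatory signals. It had 5.36, 6.10 and 1.35 CPM in pseudopodia, 36.8, 31.9 and 34.3 in the cell body and 8.10, 8.28 and 6.99 in whole cell. Cell body stood far above the other 2 groups, and pseudopodia lay below whole cell in every library. The log2 fold changes were -3.00 ± 0.447 for pseudopodia against cell body and 2.14 ± 0.43 for cell body against whole cell. For pseudopodia against whole cell the value was -0.86 ± 0.422, without pseudopodia replicate 3 it was -0.43, and after the correction for GC content the direction turned (0.42). For cell body against whole cell the corrected value was 2.97.

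HAPLN1, a link protein that locks hyalectan proteoglycans onto hyaluronan, had 75.7, 102.6 and 31.4 CPM in pseudopodia, 552.2, 301.8 and 461.0 in the cell body and 726.1, 736.4 and 740.2 in whole cell. The 3 groups did not overlap, and HAPLN1 was the only one of the 9 genes with whole cell above every library of the fractions, as were 25.2% of all genes tested. HAPLN1 fell in pseudopodia against cell body (log2 fold change -2.65 ± 0.395, 6.27-fold, adjusted p = 0.000677) and against whole cell (-3.39 ± 0.408, 10.5-fold, adjusted p = 9.66e-05). After the correction for GC content the latter was -2.77 (adjusted p = 8.01e-06). Cell body against whole cell gave -0.74 ± 0.373 (adjusted p = 0.145), which passed without pseudopodia replicate 3 (adjusted p = 0.0199), with limma-voom (-0.92, adjusted p = 0.000288) and in the fit of 6 libraries (adjusted p = 0.0171). Per length, HAPLN1 was the most abundant of the 9 genes in whole cell (562.1, 546.4 and 551.5 TPM) and CEMIP in pseudopodia (113.6, 94.3 and 102.0 TPM). In cell body CEMIP and HAPLN1 changed places between libraries, with 241.1, 370.5 and 378.3 TPM against 367.8, 198.3 and 313.0 TPM.

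**Figure D3:**
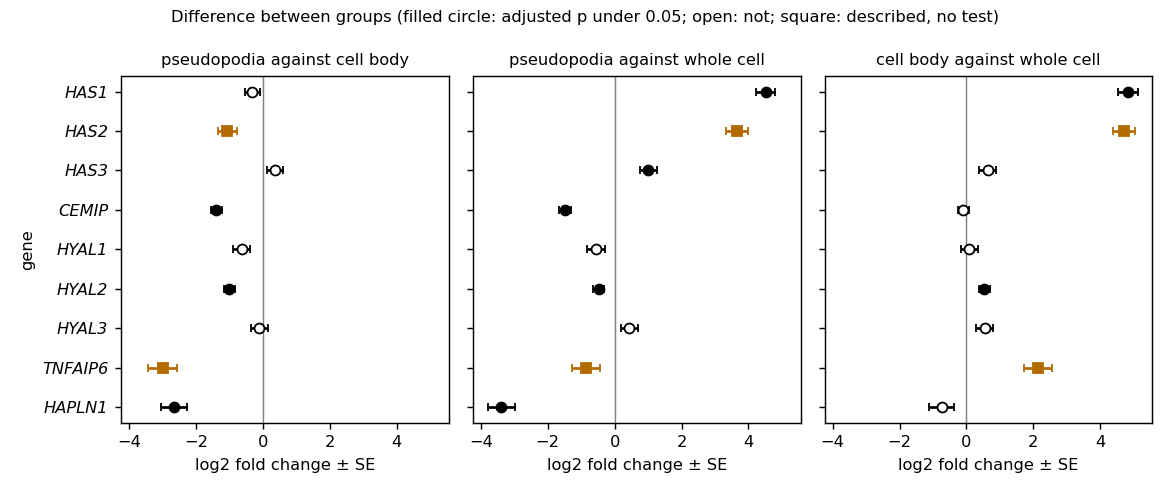
Log2 fold change ± SE of the 9 genes in the 3 comparisons, from edgeR. Circles were tested and are filled where adjusted p was under 0.05, and squares (HAS2, TNFAIP6) are described without a test. HAPLN1 is far below 0 in both comparisons of pseudopodia (-2.65 and -3.39), and HAS1 is far above 0 in both comparisons with whole cell (4.52 and 4.83).

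Of the 7 genes tested, 3 fell and 0 rose in pseudopodia against cell body (CEMIP, HYAL2 and HAPLN1), where 38.5% of all genes were called, 18.6% higher and 19.9% lower. With limma-voom 6 of the 7 were called. Against whole cell, 2 rose (HAS1 and HAS3) and 3 fell (CEMIP, HYAL2 and HAPLN1) in pseudopodia, beside 61.0% of all genes, 27.9% higher and 33.1% lower. In cell body against whole cell 2 rose (HAS1 and HYAL2) and 0 fell, beside 38.6% of all genes, 18.1% higher and 20.5% lower. This last count was 1 without cell body replicate 3 or without whole cell replicate 1, 2 or 3, and 5 without pseudopodia replicate 3. The shares of members called, 42.9%, 71.4% and 28.6%, lay near those of all genes. In CPM, libraries of pseudopodia and cell body did not overlap for 4 of these 7 genes (47.1% of all genes), those of pseudopodia and whole cell for 6 (70.0%), and those of cell body and whole cell for 5 (64.9%). The comparisons with whole cell share those libraries, and the 2 comparisons of each fraction share its own.

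The 3 pseudopodia libraries differed from each other most for the 3 genes of lowest GC content. From lowest to highest library, TNFAIP6 varied 4.52-fold, HAPLN1 3.26-fold and HAS2 2.66-fold, while the other 6 genes varied 1.25-fold to 1.83-fold. Replicate 3 was the lowest library for those 3 genes and the highest for HAS1, HAS3, HYAL1, HYAL2 and HYAL3. Transcripts of HAS2, TNFAIP6 and HAPLN1 have a mean GC content of 36.9%, 37.8% and 42.5%, and those of the other 6 range from 53.8% for CEMIP to 64.1% for HAS1, beside a median of 49.5% over the genes tested. Across 18675 genes, which are not independent, the deviation from the group mean correlated with GC content with Pearson r = -0.55 in pseudopodia replicate 2 and 0.56 in replicate 3, and between -0.12 and 0.079 in the other 7 libraries. With 3 libraries the deviations cancel, so opposite signs are largely fixed. The part of GC content in the group differences was not tested beyond the corrected fit. That fit also removes differences between groups that go with GC content, so its values stand relative to genes of like GC content.

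**Figure D4:**
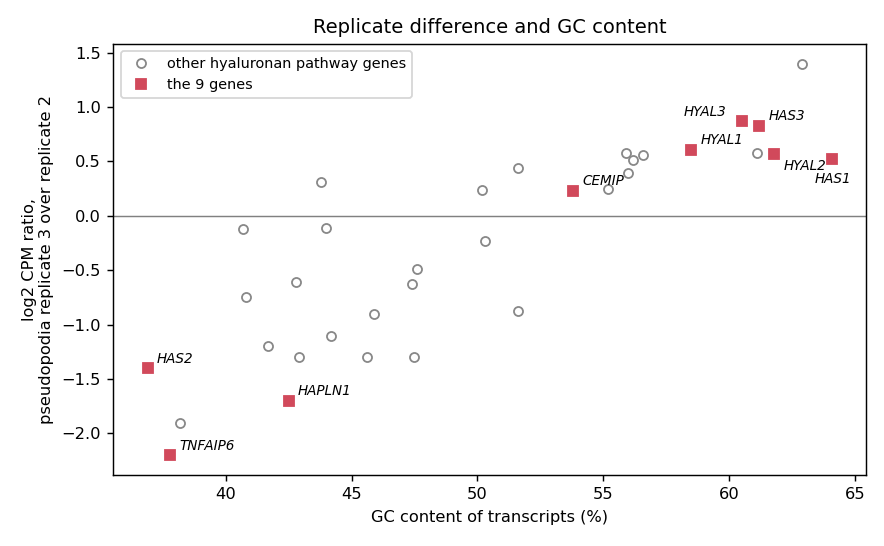
GC content of the transcripts against the log2 CPM ratio of pseudopodia replicate 3 over replicate 2, for the 9 genes (squares) and 25 other pathway genes (open circles). HAS2, TNFAIP6 and HAPLN1 lie at -1.40, -2.20 and -1.70, and the 6 genes of higher GC content lie above 0.

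The rest of the pathway was read from a list of 36 genes, of which 25 passed the filter. In pseudopodia against cell body 12 of the 25 fell and 1 rose (52.0% called, beside 38.5% of all genes), with a median log2 fold change of -0.77, against -0.05 over all genes. Against whole cell 6 rose and 10 fell in pseudopodia (64.0% called, near the 61.0% of all genes), with a median of -0.41, against -0.12. In cell body against whole cell 11 rose and 2 fell (52.0% called, beside 38.6%), with a median of 0.28, against -0.06.

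Most enzymes that make the sugar nucleotides were higher in the fractions than in whole cell. Of 7 precursor genes, 5 rose in pseudopodia against whole cell (27.9% of all genes rose) and 6 in cell body (18.1% of all genes), and 0 fell. UAP1, which makes UDP-N-acetylglucosamine, had 323.2 ± 13.2 CPM (SD, n = 3) in pseudopodia, 247.6 ± 15.3 in the cell body and 45.1 ± 1.75 in whole cell. It rose by 2.84 ± 0.116 and 2.46 ± 0.115 on the log2 scale against whole cell (adjusted p = 2.94e-08 and 2.30e-07 in edgeR), and was the precursor gene that rose in pseudopodia against cell body (0.39 ± 0.109, adjusted p = 0.0159). UGDH, which makes UDP-glucuronic acid, had 345.7 ± 73.9, 342.9 ± 44.2 and 87.4 ± 2.26 CPM, with log2 fold changes of 1.98 ± 0.17 and 1.97 ± 0.17 against whole cell (adjusted p = 3.38e-06 and 1.39e-05 in edgeR). GFPT2, an enzyme at the entry of the hexosamine pathway, rose against whole cell by 1.44 ± 0.14 in pseudopodia and 1.40 ± 0.14 in cell body on the log2 scale (adjusted p = 7.78e-06 and 3.77e-05). GFPT1 (0.80 and 0.78) and GNPNAT1 (0.79 and 0.95) of the same pathway also rose in both. UGDH and GFPT2 did not pass between pseudopodia and cell body (adjusted p = 0.963 and 0.81), while UGP2 (-0.76, adjusted p = 0.0268) and PGM3 (-0.82, adjusted p = 0.0291) fell there.

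Of 3 hyalectan proteoglycans tested, 2 fell in pseudopodia in both comparisons, as did 2 of 4 heavy chain and matrix assembly genes, and 0 rose. Of all genes, 19.9% fell against cell body and 33.1% against whole cell, and these lists are too short to be set apart from them. VCAN (versican), which binds hyaluronan through its amino-terminal domain, had 13.3, 24.7 and 13.3 CPM in pseudopodia, 83.9, 193.7 and 78.5 in the cell body and 332.0, 297.0 and 323.6 in whole cell. The groups did not overlap, and VCAN fell in pseudopodia against cell body (-2.79 ± 0.39, adjusted p = 0.000454) and whole cell (-4.21 ± 0.415, adjusted p = 2.79e-05). It also fell in cell body against whole cell (-1.42 ± 0.37, adjusted p = 0.015), a call lost without cell body replicate 1 (adjusted p = 0.0546) or 3 (0.054) and with no low-count filter (0.0746). ACAN (aggrecan) fell in pseudopodia against both (-1.87 ± 0.193 and -1.84 ± 0.193, adjusted p = 2.20e-05 and 1.34e-05), with 0.02 ± 0.187 between cell body and whole cell (adjusted p = 0.937). PTX3, a pentraxin that crosslinks hyaluronan together with TNFAIP6, fell from 674.0 ± 64.1 CPM in cell body to 134.3 ± 61.0 in pseudopodia (-2.33 ± 0.321, adjusted p = 0.000408), with whole cell at 684.0 ± 27.9. AMBP, which encodes the light chain of inter-alpha-inhibitor, fell in pseudopodia (-1.58 and -1.55) from means of 0.252 CPM or less, and lost both calls with no low-count filter (adjusted p = 0.0553 and 0.0505). The link protein HAPLN3 fell in pseudopodia against cell body (-1.43 ± 0.168, adjusted p = 5.63e-05) and rose in cell body against whole cell (1.46 ± 0.168, adjusted p = 9.55e-05). Its change was not tested against that of HAPLN1.

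Of 5 receptors tested, 2 fell in pseudopodia against cell body and 3 against whole cell, and 0 rose. Of all genes, 19.9% and 33.1% fell in these comparisons, and 38.5% and 61.0% were called in either direction. A list of 5 genes is too short to be set apart from these shares. CD44, the main hyaluronan receptor, had 452.5, 460.5 and 326.8 CPM in pseudopodia, 1149, 1493 and 1464 in the cell body and 654.5, 646.7 and 650.1 in whole cell, and the groups did not overlap. It fell in pseudopodia against cell body (-1.73 ± 0.16, adjusted p = 9.87e-06) and whole cell (-0.65 ± 0.156, adjusted p = 0.00376), and rose in cell body against whole cell (1.07 ± 0.157, adjusted p = 0.000471). TLR4, an innate immune receptor that hyaluronan fragments can engage, fell in pseudopodia against both (-1.11 ± 0.251 and -1.38 ± 0.253, adjusted p = 0.00518 and 0.000769), with -0.76 and -0.62 after the correction for GC content. HMMR, a hyaluronan-binding protein of the mitotic spindle, was low in both fractions (means of 0.638 and 0.608 CPM) and at 4.27 ± 0.794 in whole cell. Against whole cell it fell in pseudopodia (-2.71 ± 0.426, adjusted p = 0.000363) and in cell body (-2.81 ± 0.431, adjusted p = 0.000902), with -1.51 and -2.03 after the correction. The pseudopodia value rests on 26, 89 and 17 reads, and without pseudopodia replicate 2 it was -3.58.

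CEMIP2, a membrane protein related to CEMIP, rose against whole cell in pseudopodia (1.21 ± 0.18, adjusted p = 0.000167, and 1.81 after the correction for GC content) and in cell body (0.77 ± 0.179, adjusted p = 0.00632). The lysosomal enzymes GUSB and HEXA, which act late in the breakdown, both fell in pseudopodia against cell body (-1.66 and -1.51, adjusted p = 3.52e-06 and 1.64e-05). They fell against whole cell too (-1.37 and -1.33, adjusted p = 6.70e-06 and 2.21e-05). The antisense gene HAS2-AS1 had 0.454 ± 0.215 CPM in pseudopodia, 0.847 ± 0.204 in the cell body and 0.576 ± 0.104 in whole cell, and passed in no comparison. Its sense partner HAS2 was lowest in whole cell.

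**Figure D5:**
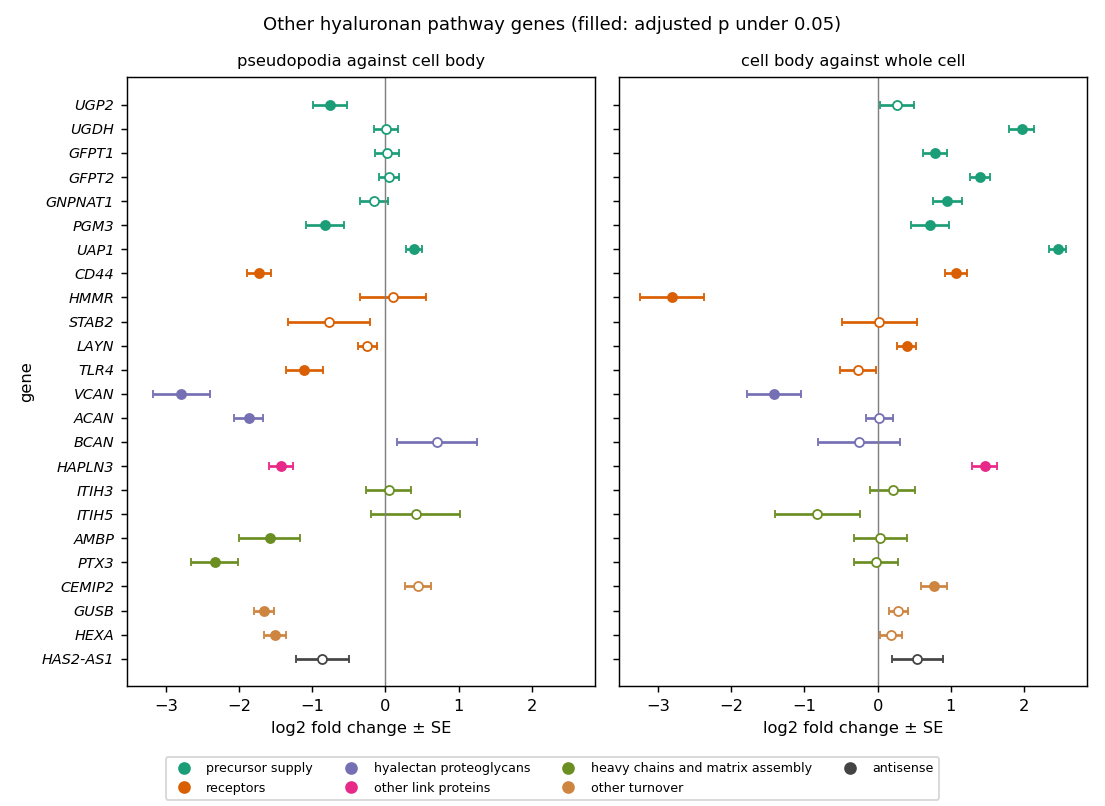
Log2 fold change ± SE of other pathway genes, for pseudopodia against cell body (left) and cell body against whole cell (right), coloured by role and filled where adjusted p was under 0.05. The precursor genes UGDH and UAP1 lie at 0.01 and 0.39 on the left and at 1.97 and 2.46 on the right. Of the same role, UGP2 and PGM3 lie at -0.76 and -0.82 on the left and at 0.26 and 0.72 on the right. VCAN and PTX3 lie low on the left (-2.79 and -2.33).

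The genes most like HAS2 over the 9 libraries, by Pearson r of log2 CPM among 8685 genes with a mean of at least 10 CPM, were MAP3K4-AS1 (r = 0.999), PNO1 (0.994), AMD1, SQLE (0.993 each) and EVA1A (0.992). MAP3K4-AS1 had mean levels of 21.1 CPM in pseudopodia, 37.3 in the cell body and 2.15 in whole cell. Pearson r takes no account of the size of a shift. EVA1A had 37.0, 42.5 and 24.85 CPM, beside 37.7, 79.0 and 2.99 for HAS2. For TNFAIP6 the genes of highest r were TM4SF1 (0.994), CNIH1 (0.989), SPCS1 (0.988), YTHDF2 (0.986) and PSMC2 (0.985). TM4SF1 had 80.7, 303.1 and 134.2 CPM and CNIH1 71.9, 108.1 and 83.4, beside 4.27, 34.3 and 7.79 for TNFAIP6. HAS2 and TNFAIP6 themselves had r = 0.43, and HAS2 with HAPLN1 r = -0.40. These values describe 9 libraries, and the points share their group and, in pseudopodia, the differences with GC content given above.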

How the data were processed

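RNA of 9 hTERT-MSC libraries was analysed. The authors deposited a table of whole-number counts for each gene, which the labels tie to featureCounts, with GRCh38 and DESeq2 listed in the submitters' processing notes. TPM values were deposited by the authors for each library. The TPM equalled the counts scaled by a constant per gene and a constant per library (largest relative deviation 2.98e-15 over 15141 genes). The constant per gene was not compared with gene length. Aligner, annotation release and strand setting were not given in the sources used here. The count table had 1 line without values, which was left out.

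All 9 libraries entered 1 robust quasi-likelihood fit of the counts in edgeR 4.0.16 (R 4.3.3), scaled by TMM after filterByExpr by group, and adjusted p under 0.05 was called. Standard errors came from the test statistic. Spread was unequal between groups, and a single value per gene was fitted, which may make p-values too small where pseudopodia enter and too large elsewhere.

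The members and lists were chosen with earlier results of these data known. Pathway genes called with at least a 2-fold difference in any comparison are named, with others beside a member of like role. A further such gene enters the counts but is not reported here. For HAS2 and TNFAIP6 the 5 genes of highest Pearson r are named. Alternatives were DESeq2 1.42.0, DESeq2 size factors, limma 3.58.1 (voom with sample weights, log2(TPM + 1), log2(TPM + 0.1)), no filter, 6 libraries, a replicate block, and leaving out each library. A correction for GC content (mean over a gene's GENCODE transcripts, lowess per library as offset, 96.1% of genes) was chosen after seeing the data. Its lowess was fitted to each gene's deviation from its mean over all 9 libraries, not over its group.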

Additional observations from a re-analysis of the deposited data

How the results depend on the processing

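The number of genes called stayed within 1.5 times the reported count in all alternatives run but limma-voom for cell body against whole cell (11999 against 7501). On TPM the split moved to lower calls: log2(TPM + 1) gave 2310 higher and 5907 lower for pseudopodia against cell body (3605 and 3870 in edgeR on counts), 3227 and 9687 against whole cell (5412 and 6430), and 2643 and 5898 for cell body against whole cell (3521 and 3980). The median log2 fold change of all genes was then -0.17, -0.34 and -0.15, and -0.31, -0.56 and -0.23 on log2(TPM + 0.1), against -0.046, -0.12 and -0.064. Of the 7 members tested, the count called between pseudopodia and cell body (3) was 6 with limma-voom and 5 on log2(TPM + 1), with and without a filter, and after GC correction. Leaving out a library gave 3 to 4. For cell body against whole cell (2) it was 5 with limma-voom and with 6 libraries, and 1 on log2(TPM + 1), with and without a filter, and on log2(TPM + 0.1). Leaving out a library gave 1 to 5. Counts of pathway genes called stayed within 1.5 times in all alternatives.

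Direction turned for TNFAIP6 in pseudopodia against whole cell after GC correction (0.425). It also turned for these values, where the refits with the turned sign did not pass. HYAL3 in pseudopodia against whole cell was -0.0331 on log2(TPM + 1), with and without a filter, and -0.0519 on log2(TPM + 0.1), and against cell body it ran from -0.378 to 0.07 when a library was left out. CEMIP in cell body against whole cell was 0.00967 with limma-voom and ran from -0.189 to 0.0981. HYAL1 in cell body against whole cell was -0.0631 on log2(TPM + 1), with and without a filter, -0.105 on log2(TPM + 0.1) and -0.0619 after GC correction, and ran from -0.0973 to 0.243. The cause was not tested. Of 570 refits of the pathway genes named with at least a 2-fold difference, 564 kept direction and call and 6 lost the call.

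Same-numbered libraries did not deviate together (r from -0.081 to 0.09 over the 9 pairs). With 3 libraries per group, these values cannot show whether same-numbered libraries came from the same membranes. The main fit had no replicate block because the labels name no covariate. The replicate block gave 6920, 11494 and 6798 calls in the 3 comparisons, and the members called under the replicate block were 3, 5 and 2.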
